A study of Saccharomyces cerevisiae with 16 samples.

Results

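The 33 genes described here encode the isoenzymes that carry sugar from glucose to ethanol, acetate and glycerol in budding yeast, from the hexose kinases (HXK1, HXK2, GLK1) through pyruvate kinase (CDC19, PYK2), without PGK1, and on to pyruvate decarboxylases, alcohol and aldehyde dehydrogenases, acetyl-CoA synthetases and the enzymes of glycerol synthesis. They were chosen by name, and all 33 were found among 5696 rows of yeast genes in the count table. Reads came from sequencing of 5′-phosphorylated RNA ends with reverse transcription from oligo(dT) only, an assay that captures mostly decay intermediates with a poly(A) tail, so a read level is not a measure of total mRNA. All 8 groups were strain BY4741 (a haploid laboratory strain of mating type a that lacks functional HIS3, LEU2, MET17 and URA3), grown for 4 h at 30 °C in SC-Ura to an OD600 of 0.7. One group carried the plasmid POT1-ccdB, which has no reporter. The other 7 carried an mCherry reporter under the RPS3 promoter on a low copy number plasmid, which ended in the native RPS3 terminator (WT) or in one with 3 inserts of 9 bp, named by the inserts as modNNN, modNTN, modNAA, modNGG, modHNH and modHTH. N is a random sequence and A, H and T are short motifs named in the series' design, which does not describe G.

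In fermenting yeast most glucose carbon runs through glycolysis to pyruvate, which pyruvate decarboxylase and alcohol dehydrogenase turn into ethanol, and this regenerates the NAD+ that the TDH enzymes consume. A smaller flow leaves at dihydroxyacetone phosphate and becomes glycerol through GPD and GPP enzymes, and another passes from acetaldehyde to acetate and acetyl-CoA through ALD and ACS enzymes. Most steps are encoded by several genes, of which one is used in growth on glucose and others are known to be repressed by glucose or induced in respiratory growth or stress.

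Of 16 libraries, 2 per group, 13 were used, with 1070844 to 2939907 reads. One library each of modNGG (477 reads), modHNH (267) and modHTH (69) was too shallow to use, which leaves these 3 groups with their first library only. The 33 genes took between 4.73% and 6.36% of the reads on yeast genes in the 13 libraries. The strain's deleted markers URA3 and MET17 had 0 reads and LEU2 at most 2, while HIS3 had 198 to 582. The mating type a genes MFA1, MFA2 and STE2 had 417 reads or more in every library, and the alpha genes STE3, MF(ALPHA)1 and MF(ALPHA)2 had 20 or fewer. Levels also leaned on transcript length, from −0.11 per doubling of length on the log2 scale in the first modNNN library to 0.158 in modHNH and 0.164 in modHTH. The labels do not state separate cultures for the libraries of a group. The p-values therefore reflect library-to-library spread, which may be technical, and a lower level in a bulk culture does not separate fewer cells from less RNA per cell.

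Levels of different genes were set side by side as CPM (reads scaled by library total and TMM factor) per kb of coding sequence, averaged over the 13 libraries. They spanned from GPM1, the main phosphoglycerate mutase, at 11460 ± 1474 (SD, n = 13) down to ADH2, the glucose-repressed alcohol dehydrogenase, at 0.963 ± 0.710 (SD, n = 13). On this scale GPM1 was followed by the glyceraldehyde-3-phosphate dehydrogenase TDH3 at 7621 ± 1655 and the enolase ENO2 at 6895 ± 850 (SD, n = 13 each). FBA1, the only aldolase gene, followed at 4670 ± 428, and ADH1, which makes ethanol, at 4291 ± 941 (SD, n = 13 each). The order of close neighbours was not firm. TDH3 exceeded ENO2 in 10 of 13 libraries, ADH1 exceeded TDH2 in 7 of 13 and the triosephosphate isomerase TPI1 exceeded the pyruvate decarboxylase PDC1 in 7 of 13. GPM1 lay above TDH3 in 13 of 13, although the ranges of the 2 genes over all libraries overlapped. Only 2 of the 32 steps between neighbours had ranges that did not overlap, ENO2 above FBA1 and HXK1 above ACS1.

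**Figure D1:**
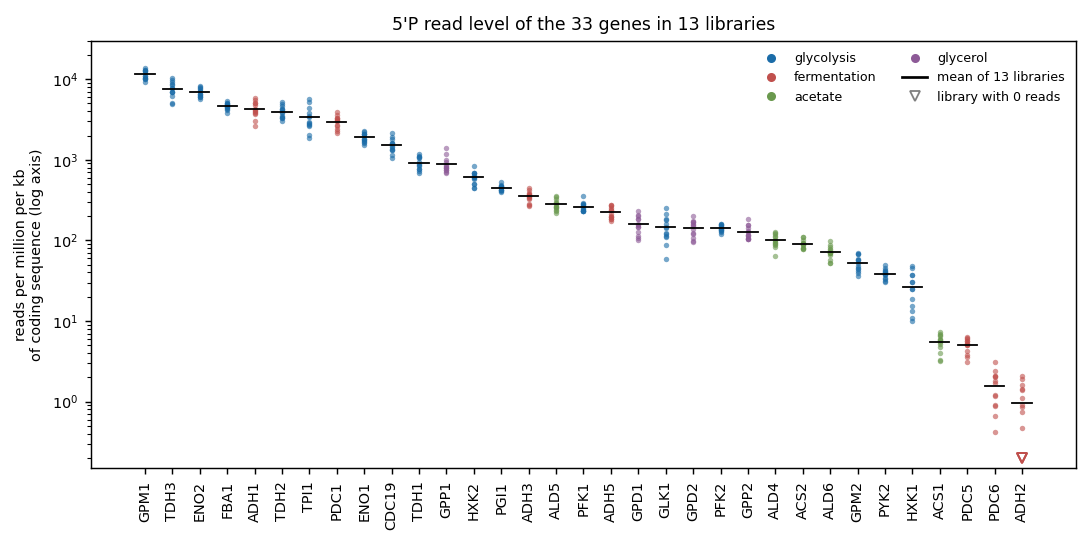
CPM per kb of coding sequence (log axis) for each of the 33 genes, ordered by mean. Each point is 1 of 13 libraries, the bar is their mean, colours give the branch of metabolism, and open triangles mark libraries with 0 reads. The means run from 11460 for GPM1 to 0.963 for ADH2, and neighbouring genes overlap at nearly every step.

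The phosphofructokinase subunits PFK1 and PFK2, which form 1 enzyme, stood at 263 ± 37 and 142 ± 13 CPM per kb, and PGI1, the phosphoglucose isomerase, at 451 ± 35 (SD, n = 13 each). HXK2, the hexokinase of growth on glucose, stood at 604 ± 112, against 145 ± 52 for the glucokinase GLK1 and 26.7 ± 12.6 for HXK1 (SD, n = 13 each). In the glycerol branch, the phosphatase GPP1 was at 885 ± 203 and its partner GPP2, known as the osmotically induced copy, at 128 ± 25 (SD, n = 13 each). The glycerol-3-phosphate dehydrogenases GPD1 and GPD2 were close, at 159 ± 41 and 144 ± 32 (SD, n = 13 each).

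The length used matters where the deposited annotation gives a transcript much longer than the gene, and 31 of the 33 genes have one. The TDH3 transcript runs over 2339 bases for a coding sequence of 999, on chromosome VII from 882706 to 885044 (sacCer3), and shares 1781 bases with the transcript of PDX1 on the same strand. Per kb of transcript, TDH3 stood below ENO2 in 13 of 13 libraries, the reverse of the order per kb of coding sequence. GPM1 stayed first per kb of transcript, with a mean of 6072 against 5475 for ENO2. Without division by length ENO2 came first, at a mean of 9061 CPM against 8526 for GPM1. The HXK1 transcript (chromosome VI, 253523 to 255160) shares 1098 bases on the same strand with that of YFR052C-A, and the GPM1 transcript (chromosome XI, 163006 to 164409) shares 602 with that of NNR2. The PYK2 transcript shares 1405 bases with that of REV1 on the other strand. The assignment of reads in shared stretches, and of reads that match several of these closely related coding sequences, is not stated in the labels, so levels of TDH, ENO, PDC, ADH, HXK and ALD isoenzymes are uncertain to that extent.

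In 4 of the 12 families 1 isoenzyme held 94.3% or more on average. Shares were taken per kb of transcript, or of coding sequence for the PDC and ACS families, in which PDC6 and ACS1 have no transcript in the annotation. CDC19, the pyruvate kinase of glycolysis, held 98.4% ± 0.3 of its family against PYK2, and GPM1 held 99.3% ± 0.1 against GPM2 (SD, n = 13 each). PDC1 held 99.8% ± 0.1, PDC5 0.176% ± 0.057 and PDC6 0.0552% ± 0.0305 (SD, n = 13 each). PDC5 is known to be expressed when PDC1 is missing. ACS2, the acetyl-CoA synthetase used on glucose, held 94.3% ± 1.5 against the glucose-repressed ACS1 (SD, n = 13).

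Among ADH1, ADH2, ADH3 and ADH5, ADH1 held 87.7% ± 3.7 and the mitochondrial ADH3 6.95% ± 2.10. ADH5 held 5.37% ± 1.61 and ADH2 0.0273% ± 0.0221 (SD, n = 13 each). ADH4, ADH6, ADH7 and SFA1 are not counted, and ADH6 gave 248 to 359 CPM. ADH2 had between 0 and 6 reads in a library. It had 0 in both modNNN libraries and in the second modNTN library, which allows up to 3 reads, or 1.78 to 2.11 CPM there. Such intervals cover counting error only. PDC6 had 2 to 9 reads. Neither ADH2 nor PDC6 passed the filter on low counts, so 31 of the 33 genes were tested.

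The leading isoenzyme held less in the other families. TDH3 held 47.4% ± 3.0, TDH2 41.6% ± 2.6 and TDH1, known as the copy of stationary phase and stress, 10.96% ± 1.58 (SD, n = 13 each). With coding length in place of the long TDH3 transcript the same 3 genes held 60.6%, 31.9% and 7.495% on average. Among ALD4, ALD5 and ALD6, the mitochondrial ALD5 held 49.7% ± 6.6 and the mitochondrial ALD4 29.8% ± 4.5. The cytosolic ALD6 held 20.5% ± 3.0 (SD, n = 13 each), and ALD2 and ALD3 are not counted. The ALD5 transcript runs over 2958 bases for a coding sequence of 1563. Per kb of coding sequence ALD5 held 55.7% to 74.8%, ALD4 13.8% to 27.2% and ALD6 11.15% to 20.95% over the libraries. GPD1 held 51.0% ± 6.0 against GPD2, and it ranged from 37.4% in modHNH to 60.5% in the first modNNN library. GPP1 held 87.2% ± 2.4 against GPP2, and PFK1 64.8% ± 1.8 against PFK2 (SD, n = 13 each).

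ENO1 (YGR254W) and ENO2 (YHR174W) encode near-identical enolases, and their ratio had the smallest unadjusted p of the share tests. ENO1 held 24.4% and 25.7% of enolase reads per kb in the 2 libraries without reporter, and a lowest of 20.3%, a median of 21.3% and a highest of 22.3% in the 11 with it. The 2 sets did not overlap, and the group means with the reporter ran only from 20.9% in modHNH to 21.6% in WT. The share was 3.75 percentage points lower with the reporter and lower in 11 of 11 libraries (two-sided exact permutation test over 78 splits, p = 0.013, the smallest they can give). Adjusted over the 24 share tests the p was 0.31, and with 78 splits a single share could not have passed. By level, ENO1 gave 2999 and 2772 CPM without the reporter and 2002 to 2933 with it, which overlap, and ENO2 gave 9444 and 8140 without it and 7515 to 10846 with it. The log2 fold changes were −0.21 (SE 0.12, edgeR adjusted p = 0.37) for ENO1 and +0.09 (SE 0.13, edgeR adjusted p = 0.75) for ENO2.

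**Figure D2:**
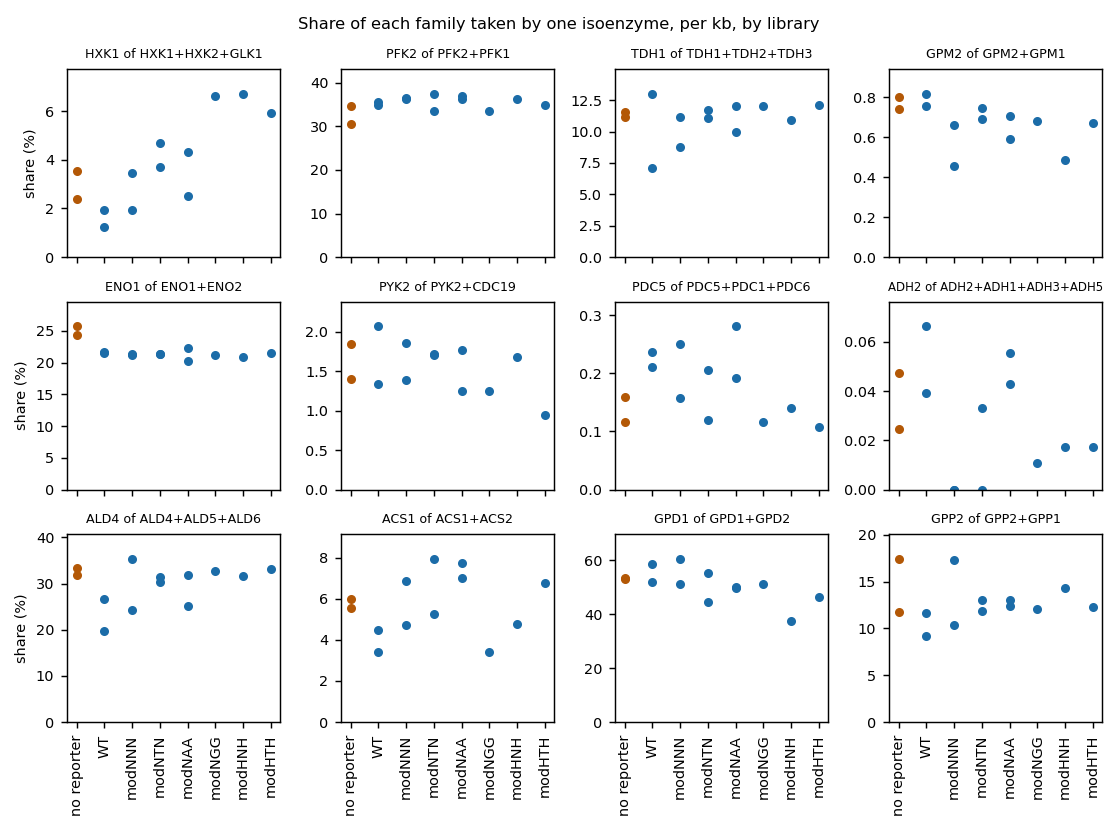
Share in percent, per kb, of 1 isoenzyme in each of 12 families, by group. Each point is a library, orange without reporter and blue with it, and each vertical axis starts at 0. The ENO1 share lies at 24.4% and 25.7% without the reporter and at 20.3% to 22.3% with it, whereas the HXK1 share spreads from 1.24% to 6.71%.

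None of the 12 shares passed, in the test of reporter against no reporter or in the exact test of the F ratio over the 5 groups of 2 libraries (all ways to pair 10 libraries, adjusted over the same 24 tests). Of the 24, 2 had an unadjusted p under 0.05. The other, beside ENO1, was the PFK2 share, at 30.6% and 34.6% without the reporter against 33.4% to 37.5% with it, a difference of 2.998 points (two-sided exact permutation p = 0.038, adjusted p = 0.46). That difference was 0.973 points without the first control library and 5.02 without the second. The HXK1 share was 3.53% and 2.38% without the reporter and 1.24% and 1.92% in WT. It reached 6.63%, 6.71% and 5.92% in the lone libraries of modNGG, modHNH and modHTH, above all 10 libraries of the other groups, whose highest was 4.67%. The GLK1 share was lowest in modHNH at 7.53% and in modHTH at 10.5%, against 16.5% to 25.2% in the other 11 libraries. These 3 lone libraries are also those with the highest length slopes (0.0862, 0.158 and 0.164). The part of that in the shares was not tested. Against modNNN they had an unadjusted edgeR p under 0.05 in 14.4%, 15.8% and 19.5% of all genes. How many of all genes separate these libraries from the others was not counted. The pattern is thus not shown to be particular to HXK1 or GLK1.

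The first comparison of levels was of the 7 reporter groups with the group without reporter. No gene of the 31 tested passed edgeR's quasi-likelihood test at an adjusted p under 0.05, as against 0.38% of all 5268 genes. At an unadjusted p under 0.05 there were 13 of the 31, all lower with the reporter, against 18.2% of all genes. DESeq2 called 0 of the 26 to which it gave an adjusted p, against 2.26% of all such genes. The log2 fold change lay below 0 in 29 of the 31 and had a median of −0.26, whereas it lay below 0 in 47.3% of all genes with a median of 0.02. All 31 values share the same 2 control libraries, so their directions are not independent. The 31 values ran from −0.81 for GLK1 to 0.27 for PDC5. Values above 0 came from PDC5 and ENO2.

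**Figure D3:**
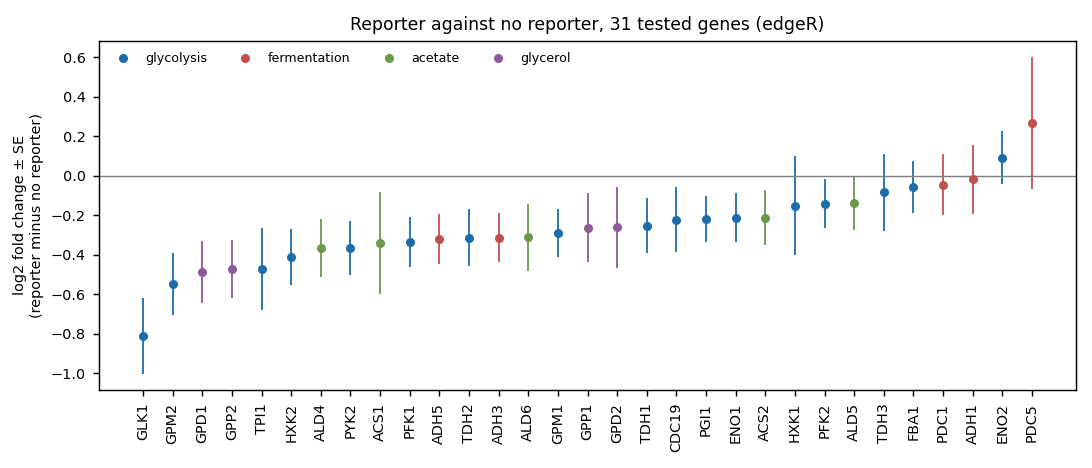
Log2 fold change with its SE (edgeR, 13 libraries) of the 31 tested genes between the reporter groups and the group without reporter, ordered by value. Values run from −0.81 for GLK1 to 0.27 for PDC5, 29 of 31 lie below 0, and none passed the threshold.

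GLK1 (YCL040W), which phosphorylates glucose but not fructose, came nearest to the threshold. It stood at 375 and 238 CPM without the reporter, and with it at a lowest of 88.8, a median of 184 and a highest of 321. The sets overlapped, since 3 reporter libraries, the first of WT, modNNN and modNTN, lay above the lower of the 2 controls. The log2 fold change was −0.81 (SE 0.19, edgeR adjusted p = 0.074), a 1.75-fold lower level. It was −0.45 without the first control library and −0.48 (adjusted p = 0.44) with only the 4 reporter groups of 2 libraries. It passed in 6 of 20 alternatives, with adjusted p from 0.0024 to 0.59 over all of them.

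In the glycerol branch GPD1 (YDL022W), which makes glycerol 3-phosphate, gave 219 and 243 CPM without the reporter and 118 to 272 with it, with a median of 174. Its log2 fold change was −0.49 (SE 0.16, edgeR adjusted p = 0.14), and −0.25 with the 4 reporter groups of 2 libraries. GPP2 gave −0.47 (SE 0.15, edgeR adjusted p = 0.13) and GPP1 and GPD2 were both at −0.26. All 4 genes of the branch thus had values below 0 and none passed.

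TPI1 (YDR050C), which returns dihydroxyacetone phosphate to glycolysis, varied widely within groups. It gave 3310 and 2839 CPM without the reporter, but 4282 and 1973 in the 2 WT libraries. The lowest reporter library was modHNH at 1411. Its log2 fold change was −0.47 (SE 0.21, edgeR adjusted p = 0.24), and −0.28 (adjusted p = 0.70) with the 4 reporter groups of 2 libraries.

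In 3 genes every reporter library lay below both control libraries, where 3.45% of all genes did so. GPM2 (YDL021W), a minor homolog of the mutase GPM1, stood at 63.8 and 65.8 CPM without the reporter and at 33.5 to 62.8 with it (log2 fold change −0.55, SE 0.16, edgeR adjusted p = 0.11). PYK2 (YOR347C), the pyruvate kinase of low glycolytic flux, stood at 68.5 and 75.3 against 46.1 to 65.1 (−0.36, SE 0.14, edgeR adjusted p = 0.17). PGI1 (YBR196C) stood at 877 and 813 against 672 to 791 (−0.22, SE 0.12, edgeR adjusted p = 0.33). No gene of the 31 lay above both controls in every reporter library, where 2.6% of all genes did.

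The WT terminator alone was then set against the plasmid without reporter, sharing the control libraries with the comparison above. Of the 31 genes 0 passed in edgeR, against 0.038% of all genes. DESeq2 called 0 of the 23 to which it gave an adjusted p, against 1.1% of all such genes. At an unadjusted p under 0.05 there were 5, against 8.94% of all genes. They were HXK1, ALD4, TDH1, GPP2 and ALD6, and all lay lower in WT. HXK1 (YFR053C), a hexokinase known to be repressed by glucose, had the lowest values of all libraries in WT, at 14.7 and 16.04 CPM (29 and 32 reads), against 53.8 and 27.6 without the reporter. The other libraries ran from 19.7 in modNAA to 69.3 in modHNH. The log2 fold change was −1.50 (SE 0.37, edgeR adjusted p = 0.20), a 2.83-fold lower level, and −0.87 without the first control library. ALD4 (YOR374W), a mitochondrial aldehyde dehydrogenase, gave 98.8 and 137 in WT against 188 and 199 without the reporter (−0.71, SE 0.20, edgeR adjusted p = 0.25). In 13 of the 31 genes both WT libraries lay below both controls, where 18.6% of all genes did, and in 1, PDC5, both lay above, where 22.2% of all genes did. PDC5 (YLR134W) had 19 reads in each WT library and gave +0.47 (SE 0.40, edgeR adjusted p = 0.77).

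**Figure D4:**
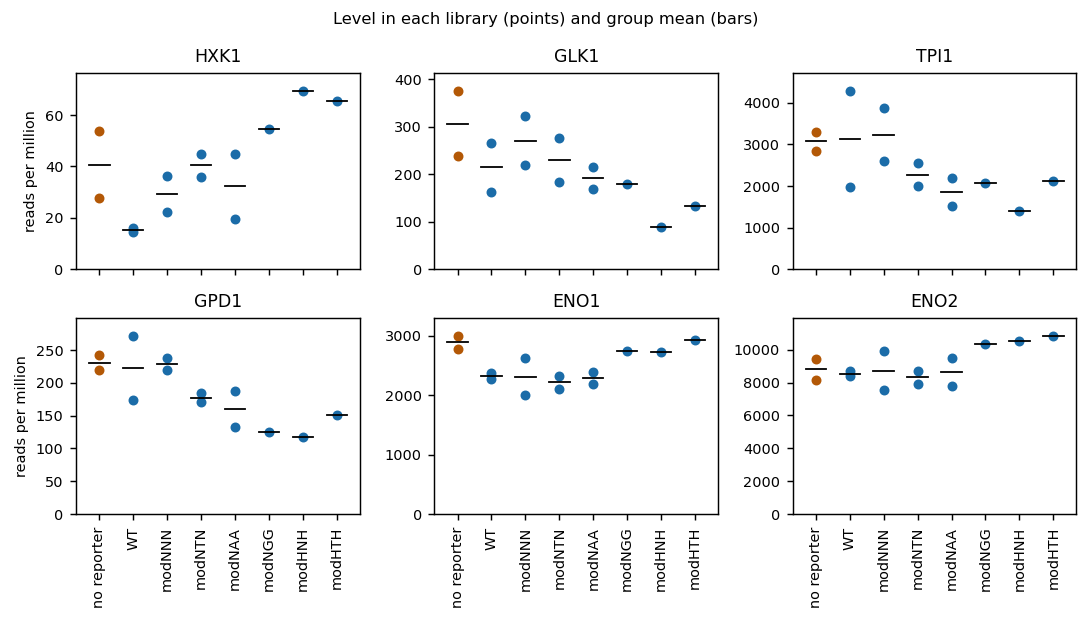
CPM in each library (points, orange without reporter) and group means (bars) for HXK1, GLK1, TPI1, GPD1, ENO1 and ENO2, with axes from 0. HXK1 is lowest in WT (14.7 and 16.04) and highest in modHNH (69.3), where GLK1 (88.8) and TPI1 (1411) are lowest.

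Among the terminators, random inserts were set against the native sequence and each motif against random inserts. For modNNN against WT 0 of the 31 genes passed in edgeR (0.019% of all genes) and 2 had an unadjusted p under 0.05, against 5.41% of all genes. HXK1 gave +0.93 (SE 0.40, edgeR adjusted p = 0.83), with 22.2 and 36.3 CPM in modNNN, and ALD4 +0.50 (SE 0.20, edgeR adjusted p = 0.83). The 31 values were split evenly, with 16 above 0 and 15 below, and GPM2 was lowest at −0.37 (SE 0.21, edgeR adjusted p = 0.83).

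For modNTN and modNAA against modNNN, 0 of the 31 and 0% of all genes passed in edgeR. Unadjusted p-values were under 0.05 in 0 and 2 of the 31, against 1.92% and 6.21% of all genes. The 2 in modNAA were TPI1, at 2192 and 1533 CPM against 3865 and 2599 (−0.80, SE 0.28, edgeR adjusted p = 0.76), and GPD1, at 188 and 132 against 238 and 220 (−0.52, SE 0.21, edgeR adjusted p = 0.76). In modNTN the ends of the range were TPI1 at −0.51 (SE 0.28) and HXK1 at +0.47 (SE 0.36), both with an edgeR adjusted p of 1.0, and in modNAA the highest was ACS1 at +0.31 (SE 0.33, edgeR adjusted p = 0.89). Values lay below 0 in 25 of 31 genes for modNTN and 26 of 31 for modNAA, with medians of −0.10 and −0.15. Over all genes 50.6% and 51.5% lay below 0, with medians of −0.003 and −0.010. These comparisons share the modNNN libraries, so their directions are not independent.

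The modNGG, modHNH and modHTH groups have 1 library each, whose spread had to be borrowed from the groups of 2. Against modNNN 0 of the 31 genes passed in edgeR in each, where 0%, 0% and 0.0569% of all genes did. DESeq2 gave an adjusted p to 26, 29 and 25 of the 31 and called 0 in each. It called 0.0454%, 0.023% and 2.55% of all such genes. Unadjusted p-values were under 0.05 in 2, 6 and 6 of the 31, against 14.4%, 15.8% and 19.5% of all genes. HXK1 stood at 54.5, 69.3 and 65.6 CPM in the 3 libraries, against 22.2 and 36.3 in modNNN. It gave +0.89, +1.24 and +1.16 (SE 0.40, 0.41 and 0.42, edgeR adjusted p = 0.33, 0.22 and 0.16). GLK1 had the opposite order, at 180, 88.8 and 133 CPM against 321 and 218 in modNNN. It gave −0.58 in modNGG, −1.60 in modHNH and −1.02 in modHTH (SE 0.33, 0.37 and 0.35; edgeR adjusted p = 0.42, 0.19 and 0.15). GPD1 gave −0.87, −0.96 and −0.60 in the same order (SE 0.26, 0.27 and 0.27; edgeR adjusted p = 0.21, 0.19 and 0.23).

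TPI1 gave −1.20 in modHNH (SE 0.36, edgeR adjusted p = 0.20), and PDC1 +0.53 in modHTH (SE 0.24, edgeR adjusted p = 0.23). Without the second modNNN library 7 genes passed for modHNH, with HXK1, PDC1 and TDH1 higher and ALD5, GLK1, GPD1 and TPI1 lower, and 4 passed for modHTH, with HXK1, PDC1 and TDH1 higher and GLK1 lower. In that fit 528 and 669 genes of the 5268 passed in all. With the trend on transcript length removed, HXK1 and GLK1 stood at +1.30 and −1.60 for modHNH, against +1.24 and −1.60 with it.

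The test for any difference among the 8 groups called 0 of the 31 genes in edgeR (0.019% of all genes) and 1, GPD1, of 27 in DESeq2, where 6.94% of all genes passed. The members with the smallest p-values were HXK1 (edgeR adjusted p = 0.081), GLK1 (0.091) and GPD1 (0.10), and 6 had an unadjusted p under 0.05, against 19.2% of all genes.

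The genes differed in how far the 2 libraries of a group lay apart. The mean absolute difference between them, over the 5 groups of 2, was 0.64 on the log2 scale for HXK1, 0.57 for GLK1, 0.56 for TPI1 and 0.52 for GPD2, ranks 111, 184, 207 and 296 of 5268 genes from the most variable. PGI1 and PYK2 were among the steadiest, at 0.12 and 0.087 (ranks 4852 and 5136). The abundant TDH3 differed by 0.45 (rank 500), most in WT with 10330 and 5116 CPM, whereas GPM1 differed by 0.16.

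Of 30 other genes of these pathways and their regulators, listed with earlier results of these data known, 27 were tested. In the 7 comparisons other than reporter against no reporter, edgeR called 0 of the 27, where at most 0.0569% of all genes passed. With the reporter 0 were higher and 1 was lower, against 0% and 0.38% of all genes. The 1 was ALD3, a stress-induced cytosolic aldehyde dehydrogenase, at 108 and 169 CPM without the reporter and 54.7 to 79.7 with it (log2 fold change −0.96, SE 0.15, edgeR adjusted p = 0.011). The call was lost without the second control library (−0.64, edgeR adjusted p = 0.34) and with the 4 reporter groups of 2 libraries (−0.92, edgeR adjusted p = 0.052), and it held in the other 18 of 20 alternatives. The median over the 27 was −0.18. PGK1, the glycolytic kinase between the TDH and GPM steps, gave 2493 and 2022 CPM without the reporter and 1101 to 3473 with it (−0.12, SE 0.22, edgeR adjusted p = 0.80). The glycolytic activator genes GCR1, GCR2, RAP1 and TYE7 gave −0.05, +0.22, +0.15 and −0.26, and none passed.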

How the data were processed

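Whole-number read counts per transcript were deposited and are not normalized by the authors. The submitters' processing notes name sacCer3 (R64) with HISAT2, featureCounts, SAMtools, bedtools, cutadapt, FastQC and MultiQC, without the order, settings or strand handling. The deposited annotation was written with rtracklayer 1.42.1, per the file headers. Libraries under 1000 reads were left out, as were 2 plasmid rows. Symbols and coding lengths came from RefSeq R64 (5550 of 5696 rows matched). edgeR 4.0.16 in R 4.3.3 fitted group on 13 libraries (TMM, filterByExpr, glmQLFit, glmQLFTest), with Benjamini-Hochberg adjustment over 5268 genes at 0.05. CPM use TMM-scaled totals. DESeq2 1.42.0 was an alternative. Isoenzyme shares were tested by exact permutation in Python 3.11.15 and adjusted over 24 tests. Both procedures were tested on simulated data. Genes with the largest change in each direction, the leading and lowest isoenzyme of each family and any gene called were named. The members, lists and tests were chosen with earlier results of these data known. Promoter motifs and protein sequences were not analysed here, since no sequence table was used here, nor were the position tables, which hold no member.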

Additional observations from a re-analysis of the deposited data

How the results depend on the processing

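In the comparisons of WT with no reporter, modNNN with WT, and modNTN, modNAA and modNGG with modNNN, the count of called genes was 0 under every alternative run. For reporter against no reporter it was 1 without a filter on low counts (GLK1), against 1.08% of all genes. It was 2 with the replicate block (GLK1 and TPI1), against 1.29%. The count also moved without a WT or modNNN library, which leaves 1 in that group, and the calls over all genes rose there too. Passes of GLK1, GPD1, TPI1 or GPM2 in those fits are therefore not read as a result about these genes. With a library left out, log2 fold changes ran from −1.08 to −0.45 for GLK1 and from −0.59 to −0.41 for GPD1. They ran from −0.59 to −0.36 for TPI1 and from −0.61 to −0.48 for GPM2. For modHNH it was 2 with the replicate block (GLK1 and TPI1) and 0 to 7 with a library left out, and for modHTH 0 to 4, both upper values without the second modNNN library. For any difference among groups it was 1 without the filter (HXK1), 1 in DESeq2 (GPD1), 1 with the replicate block (GLK1) and 0 to 5 with a library left out (3 without the second WT library, 2 without the first and 5 without the second modNNN library, 1 without the first modNAA library, where 85, 410, 646 and 20 of all genes passed). The cause was not tested. With the replicate block 0.0759% of all genes passed for modHNH, a group of 1 library, and 0.0759% for any difference among groups. For any difference 1.29% of all genes passed without the filter, and 6.94% of those with an adjusted p in DESeq2. DESeq2 gave no adjusted p to many genes and tested 26 of the 31 in the reporter comparison and 23 in that of WT with no reporter. PDC5, with 8 to 22 reads per library, reversed from 0.27 to −0.067 without the first control library (range with a library left out −0.067 to 0.44). Over all genes the calls ranged from 0 to 301 for the reporter comparison against 20 as reported, from 0 to 357 for modNGG against 0, from 0 to 528 for modHNH against 0, from 0 to 669 for modHTH against 3, from 0 to 646 for any difference against 1, from 1 to 13 for WT with no reporter against 2, from 0 to 14 for modNNN with WT against 1, from 0 to 1 for modNTN against 0 and from 0 to 7 for modNAA against 0. The labels do not state whether libraries of the same number share a batch, and this was not tested. The differences between libraries 1 and 2 correlated from −0.307 to 0.321 over 10 pairs of groups and were positive in 7. With the replicate block GLK1 stood at −0.90 (edgeR adjusted p = 0.0024) and TPI1 at −0.61 (0.043) in the reporter comparison, and GLK1 at −1.86 (0.00087) and TPI1 at −1.45 (0.026) in modHNH. No share passed over the groups of 2 in reads, log ratios or per kb of coding length, the last chosen after seeing the data. For reporter against no reporter a single share could not pass under any alternative, so its 0 passes say nothing about stability. The ENO1 share difference ranged from −4.41 to −3.09 points with a library left out and was −3.71 per read. ADH2 and PDC6, with 9 reads or fewer per library, allow no statement on change at this depth.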

Other observations

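In 4 of the 31 tested genes the library numbered 1 lay above the library numbered 2 in all 5 groups of 2, and in 0 the reverse. Over all 5268 genes these shares were 4.195% and 4.48%. The 4 genes were GLK1, TPI1, GPP1 and PFK1. The differences on the log2 scale ran from 0.35 to 0.70 for GLK1, from 0.22 to 1.12 for TPI1, from 0.22 to 0.82 for GPP1 and from 0.06 to 0.32 for PFK1. Ranked by the smallest of its 5 differences, GLK1 was number 10 among the 221 genes higher and 236 genes lower in library 1 throughout. The 3 usable lone libraries are also numbered 1.

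GPD1 and GPM2 lie next to each other on chromosome IV (coding sequences 411825 to 413000 and 413953 to 414888, R64), and after GLK1 they had the lowest values of the 31 genes with the reporter, at −0.49 and −0.55 (edgeR adjusted p = 0.14 and 0.11). Their transcripts do not overlap in the deposited annotation.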
